A study of Mus musculus with 4 samples.

Results

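Of the 20410 Gata4 peaks in the WT Flk1(+) list, 3592 (17.6%) lay in CpG-rich promoters and had a counterpart in the DKO Flk1(+) list, and these shared CpG-rich promoter peaks are described here. A member is a WT peak with a DKO peak within 500 bp of its position, with the 5′ end of a gene within 1000 bp, and with 20 or more CpGs in the 501 bases centred on it. The members were 38.6% of the 9305 WT peaks that had a DKO peak at that distance, and 77.6% of the 4629 CpG-rich promoter peaks of the WT list. The DKO list of 22733 peaks held 9816 CpG-rich promoter peaks, of which 5277 had no WT peak within 500 bp. Because presence in both lists chose the members, the heights that put a peak in a list were used by the rule, and every comparison of heights below is a description without a test.

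The 4 libraries came from J1-derived ES cells of 129 background that stably carried Gata4GR, a Gata4 protein fused to the hormone-binding part of the human glucocorticoid receptor and driven by the CAG promoter. Dexamethasone (Dex) activates this fusion. WT Flk1(+) cells (the label names clone J1G4.2) and DKO Flk1(+) cells (clone 16G4.3, Dnmt3a-/-Dnmt3b-/-) were differentiated on OP9 stroma for 4.5 days, given 100 nM Dex for 3 hr and sorted magnetically for Flk1, a receptor of lateral mesoderm and vascular progenitors. The WT ES and DKO ES libraries, undifferentiated and without Dex, were the background for the peak calls, and a mixture of 3 anti-Gata4 antibodies was used for all of them. Each condition had 1 library, and each genotype of Flk1(+) cells was 1 clone, so genotype, clone and library cannot be told apart, and no value has a replicate error. The lists hold no expression values, so the labelled cell type could not be checked against its markers, and they hold no read totals, so the number of reads behind a height is not given by them. The study states more mapped reads for the DKO Flk1(+) library than for the WT Flk1(+) library.

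Gata4 is a zinc-finger transcription factor of heart, mesoderm and endoderm that recognises the GATA element, written WGATAA (W is A or T), or WGATAR (R is A or G) in its looser form. Dnmt3a and Dnmt3b place new methyl groups on CpGs during development, and CpG-rich promoters, which belong to most housekeeping genes and to many developmental genes, are as a rule kept free of methylation. Such promoters are rich in the elements of general promoter factors, among them the CCAAT box of NFY, the GCGCATGC element of NRF1, the CCGGAAGT element of ETS factors and the GGGGCGGG element of SP and KLF factors.

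The sequences under the members that the results turn on are given first, from mm9, 5′ to 3′ on the strand of the gene, with matches to the GATA element WGATAA, the CCAAT box, the NRF1 element or the ETS element on either strand in capitals. All but that of *Lyl1* are stretches outside the annotated exons of GENCODE vM1. *Got1* and *Top2a* are shown as tall members with repeated CCAAT boxes, *Birc5* as a tall member with none of these elements in the stretch, *Ints2* and *4930427A07Rik* as members with an NRF1 and an ETS element, and the others for their GATA elements.
*Got1*, chr19:43599096-43599255, minus strand: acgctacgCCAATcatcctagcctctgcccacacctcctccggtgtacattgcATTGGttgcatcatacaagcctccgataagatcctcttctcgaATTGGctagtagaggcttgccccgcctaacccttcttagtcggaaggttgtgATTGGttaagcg
*Top2a*, chr11:98885533-98885692, minus strand: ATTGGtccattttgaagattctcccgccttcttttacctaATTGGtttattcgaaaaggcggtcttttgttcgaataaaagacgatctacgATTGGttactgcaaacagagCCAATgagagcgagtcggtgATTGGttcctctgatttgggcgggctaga
*Birc5*, chr11:117710405-117710564, plus strand: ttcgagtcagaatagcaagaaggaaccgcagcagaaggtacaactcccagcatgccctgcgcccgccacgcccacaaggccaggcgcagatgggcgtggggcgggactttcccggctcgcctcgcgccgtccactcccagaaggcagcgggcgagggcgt
*Ints2*, chr11:86071078-86071237, minus strand: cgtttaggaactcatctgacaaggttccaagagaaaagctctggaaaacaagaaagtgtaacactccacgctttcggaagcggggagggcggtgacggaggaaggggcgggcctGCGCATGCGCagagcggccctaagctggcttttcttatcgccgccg
*4930427A07Rik*, chr12:114394411-114394570, plus strand: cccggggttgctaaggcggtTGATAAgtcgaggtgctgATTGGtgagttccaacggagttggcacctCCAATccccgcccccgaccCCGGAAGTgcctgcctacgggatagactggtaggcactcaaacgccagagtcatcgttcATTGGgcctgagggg
*Med13l*, chr5:119011546-119011705, plus strand: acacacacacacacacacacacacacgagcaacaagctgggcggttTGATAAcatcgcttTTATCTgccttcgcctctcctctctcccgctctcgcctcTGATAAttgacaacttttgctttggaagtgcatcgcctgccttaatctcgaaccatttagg
*Ublcp1*, chr11:44283192-44283351, minus strand: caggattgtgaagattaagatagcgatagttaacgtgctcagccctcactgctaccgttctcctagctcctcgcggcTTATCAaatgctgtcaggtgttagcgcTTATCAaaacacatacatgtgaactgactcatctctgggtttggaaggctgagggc
*Npc2*, chr12:86114063-86114219, minus strand: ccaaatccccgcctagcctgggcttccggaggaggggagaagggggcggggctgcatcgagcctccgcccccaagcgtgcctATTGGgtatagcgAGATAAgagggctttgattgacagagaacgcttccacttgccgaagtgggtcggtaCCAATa
*Isl1*, chr13:117099897-117100056, minus strand: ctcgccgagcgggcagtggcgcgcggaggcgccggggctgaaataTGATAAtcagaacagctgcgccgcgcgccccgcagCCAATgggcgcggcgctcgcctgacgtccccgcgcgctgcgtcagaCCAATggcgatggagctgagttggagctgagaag
*Lyl1*, chr8:87225530-87225559, plus strand: cagcattgcttcTTATCAgccgcggccagg

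The stretch of *Got1*, the cytosolic aspartate aminotransferase gene, held 4 CCAAT boxes in 160 bases and no WGATAA, and that of *Top2a*, the gene of DNA topoisomerase II alpha, held 5 CCAAT boxes. The stretch of *Med13l*, a subunit gene of the Mediator kinase module, held 3 GATA elements, that of *Ublcp1* held 2, and those of *Npc2*, *Isl1* and *Lyl1* held 1 each. The 2 NRF1 matches of *Ints2* overlap, since the element read from either strand shares bases. The stretch of *Birc5* had 16 CpGs in its 160 bases and none of the marked elements.

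The members were peaks of moderate height. The median height was 9.26 in the WT Flk1(+) list, with quartiles of 7.11 and 12.8, and 8.94 in the DKO Flk1(+) list, with quartiles of 6.90 and 12.1. A height is the value of the peak caller's smoothed read profile at the summit, and no height in either list was under 5.00. At the same peaks the ES profiles stood at a median of 2.39 in WT and 2.09 in DKO, the highest medians among the 4 kinds of shared peak. Shared CpG-poor peaks away from promoters, the largest other kind with 4833 peaks, had medians of 11.3 in WT Flk1(+) and 7.33 in DKO Flk1(+), over ES medians of 1.87 and 1.14. The enrichment, which is the Flk1(+) height divided by the ES height with an ES height below 1 taken as 1, had a median of 3.79 at members in WT and 4.16 in DKO, against 5.51 and 5.90 at the CpG-poor peaks away from promoters. Of the members 58.7% had a WT enrichment under 4, close to the lower limit of the list, which was 3.00.

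The summits of both lists often lay near each other, though less closely than over all shared WT peaks. The median distance between a member's WT and DKO positions was 47 bp, against 30 bp over all shared WT peaks. It was 22 bp at CpG-poor peaks away from promoters, of which 3579 of 4833 had their DKO summit within 50 bp. Of the members 1855 (51.6%) had their DKO summit within 50 bp, and 609 had it more than 200 bp away. The 3592 members were paired with 3307 different DKO peaks, since 555 members shared a DKO peak with another member. Of the members 955 lay within 500 bp of another member, so neighbouring members read partly the same bases and are not independent.

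Members sat close to start sites, more often upstream than downstream. Of the 3592 members 3557 lay within 1 kb of an annotated start site of a protein-coding transcript in GENCODE vM1. Of these, 2235 (62.8%) were upstream and 1309 (36.8%) downstream, with a median position of −36 bp, and 49.5% (95% Wilson interval 47.8% to 51.1%) fell in the 200 bp upstream of it. Within 100 bp of the start lay 52.5% (50.8% to 54.1%), against 24.6% (20.3% to 29.6%) of the shared CpG-poor promoter peaks. These intervals, and all others given for shares, cover counting error only. The members nearest the gene end were the tallest, with a median WT height of 10.1 at 0 to 100 bp from the 5′ end and 8.01 at 501 to 1000 bp.

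A total of 594 members (16.5%) named 2 or more genes within 1 kb. Among 3414 protein-coding genes with a CpG-rich start site and a member, 698 (20.4%) had another protein-coding gene starting on the opposite strand within 1 kb upstream. The share was 12% (11% to 13%) for CpG-rich genes with a peak in the DKO list only and 9.51% (7.79% to 11.6%) for the WT list only. It was 4.05% (3.51% to 4.67%) for those with no peak in either list. A peak near both starts counts for both genes, and the part of this in the shares was not tested. Members at 2 or more genes had median heights of 10.0 in WT and 9.80 in DKO, against 9.14 and 8.81 for members at 1 gene.

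The tallest member in WT was that of *Got1*, at position 43599160 of chromosome 19 and 65 bp from the 5′ end, with heights of 113 in WT Flk1(+), 60.5 in DKO Flk1(+), 12.4 in WT ES and 11.3 in DKO ES. *Ttc32* followed with 87.0, 56.8, 17.5 and 11 in the same order, and *Spty2d1*, a histone chaperone gene, with 72.1, 76.3, 17.1 and 18.8. *Top2a* had 65.8 in WT Flk1(+), 50.6 in DKO Flk1(+), 9.89 in WT ES and 9.56 in DKO ES. The ES heights of these members were also far above the members' ES medians in both genotypes.

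*Pcgf1*, which encodes a Polycomb subunit, had heights of 64.5 in WT Flk1(+) and 38 in DKO Flk1(+), over ES heights of 8.59 and 8.27. *Atf3*, a stress-induced transcription factor gene, had 59.9 and 38.9 over 10.1 and 7.02. The member at *Cdca8*, which encodes a subunit of the chromosomal passenger complex and whose promoter lies beside 9930104L06Rik, had 58.7 and 63.8 over 15.4 and 12.6. That of *Birc5*, another subunit gene of this complex, had 53.3 and 62.0 over 12.8 and 10.2. *Ankle1*, a nuclease gene, was among the 8 tallest by DKO height but not by WT height, with 41.7 and 50.7 over 12.6 and 9.12, and *Hmgb2*, a chromatin protein gene with 49.6 and 41.3, had one of the highest WT ES heights, 14.8. Of the 360 tallest members by WT height, 232 (64.4%) were also among the 360 tallest by DKO height.

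The member at *Lyl1*, a basic helix-loop-helix gene of blood and vascular progenitors, stood out by its ES heights. It had 62.6 in WT Flk1(+), 64.5 in DKO Flk1(+), 13.0 in WT ES and 4.30 in DKO ES. Its enrichment was therefore 4.83 in WT and 15.0 in DKO, and its rank by q value was 925 among WT peaks and 15 among DKO peaks, the best rank of any member in the latter.

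The members that stood farthest above the ES libraries in both genotypes were few, and they were picked after their values were seen. The lower of the WT and DKO enrichments was under 4 at 2693 members (75%) and 8 or more at 9 (0.251%). It was highest at *Fbxo48*, with an enrichment of 17.1 in WT and 9.92 in DKO from heights of 31.0 and 23.0. *Med13l* followed with enrichments of 11 and 9.78, *4930427A07Rik* with 19.4 and 9.50, *Nono*, an RNA-binding protein gene, with 12.2 and 9.18, and *Palb2*, a DNA repair gene, with 9.04 and 10.7. Of these 9 members 5 held WGATAA, against 7 of the 52 (13.5%) with a lower enrichment of 6 to 8 and 386 (14.3%) of the 2693, so the share did not rise steadily with enrichment.

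**Figure D1:**
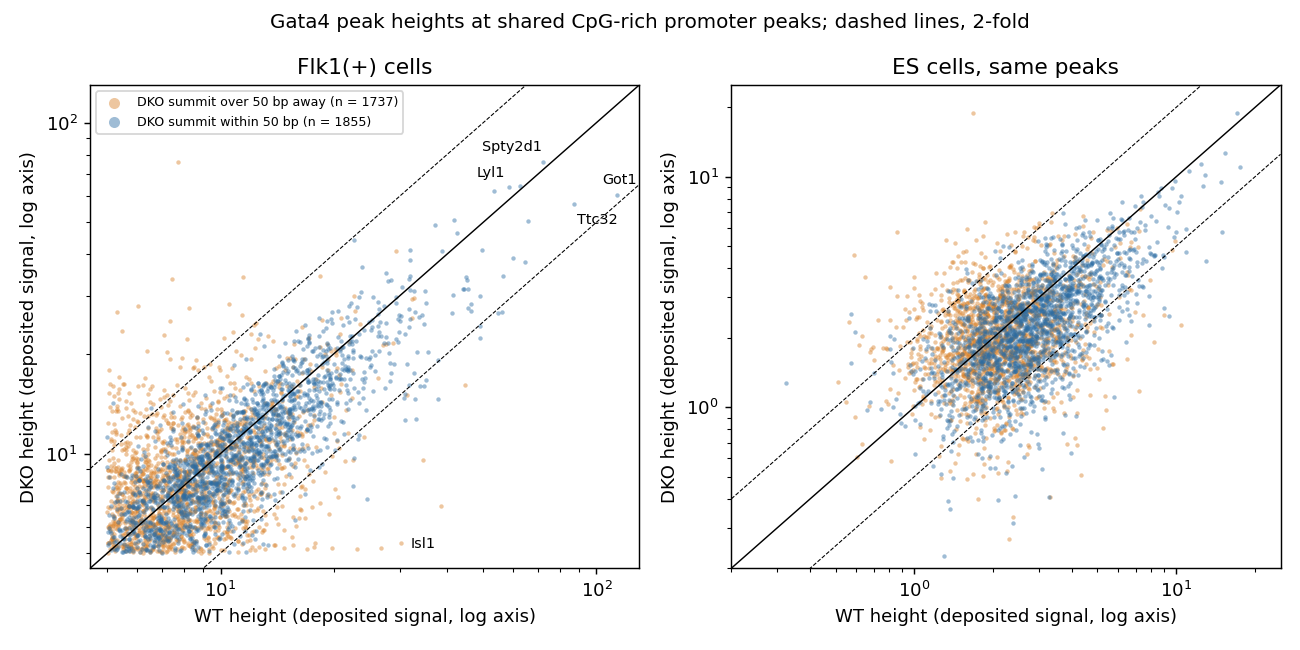
Heights of the 3592 members in DKO against WT, in Flk1(+) cells (left) and in the ES libraries at the same peaks (right), both axes logarithmic in the deposited signal unit. The solid line marks equal heights and the dashed lines a 2-fold difference, each point is 1 member, and colour gives the distance between the summits; of the 1855 members with summits within 50 bp 35 lie on or beyond a dashed line on the left.

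Heights of WT and DKO differed little at most members. The median log2 DKO/WT height was −0.07, and 10% of members were below −0.61 and 10% above 0.50. Of the 3592 members 90 (2.51%, interval 2.04% to 3.07%) were 2-fold or more higher in DKO and 97 (2.70%, interval 2.22% to 3.28%) were 2-fold or more higher in WT. Over all 9305 shared WT peaks the corresponding shares were 2.18% and 16.0%. The members' share of peaks higher in DKO was thus close to that of all shared peaks, and their share of peaks higher in WT was below it. At the 4833 shared CpG-poor peaks away from promoters 1324 (27.4%) were 2-fold or more higher in WT and the median log2 was −0.58, lower than that of the members by 0.51. All 5713 other shared peaks, most of them of this kind, had a median of −0.49. Shared CpG-poor promoter peaks had a median of −0.09, with 11.5% 2-fold or more higher in WT. Shared CpG-rich peaks away from promoters had −0.17, with 4.71% higher in WT. A median as near to equal heights was thus not particular to the members. No DKO height was under 5.00, so only peaks at least 2-fold above that limit in WT could be called higher in WT. The median WT height was 9.26 at members and 11.3 at the CpG-poor peaks away from promoters, so fewer members could be called. The part of this limit in the shares was not tested.

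The sign of the members' median depends on how the lists are scaled. Whether the heights were scaled for depth is not stated, and when each list was divided by the median height of its shared peaks every log2 value rose by 0.35. The members' median then became 0.28, with 6.38% of members and 5.30% of all shared peaks 2-fold or more higher in DKO, and 0.752% and 7.16% higher in WT. The median of the CpG-poor peaks away from promoters became −0.23. If the deposited heights are not scaled for depth, dividing each list by its library's mapped reads would move every ratio the other way, toward lower values in DKO, and this scaling was not run. With the shift by shared medians, any log2 DKO/WT value given here between −0.35 and 0 would turn positive. The difference of 0.51 between both kinds of peak does not change with such a scaling. It was 0.56 for summits within 50 bp, and 0.11, 0.59, 0.75 and 0.84 in classes of the geometric mean of both heights from 5 to 7, 7 to 10, 10 to 15 and 15 or more.

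In the ES libraries, to which no Dex was given, members also had the higher ratio of the 2 kinds of peak. The median log2 DKO ES/WT ES height was −0.21 at members and −0.82 at CpG-poor peaks away from promoters. It was −0.30 both at shared CpG-poor promoter peaks and at shared CpG-rich peaks away from promoters. Of the members 144 (4.01%) were 2-fold or more higher in DKO ES, against 3.36% of all shared peaks, and 414 (11.5%) were 2-fold or more higher in WT ES, against 27.3%. The limit on enrichment ties each ES height to the Flk1(+) height of its genotype, so the ES and Flk1(+) ratios are not independent. The part of this ES difference in the Flk1(+) difference was not tested.

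**Figure D2:**
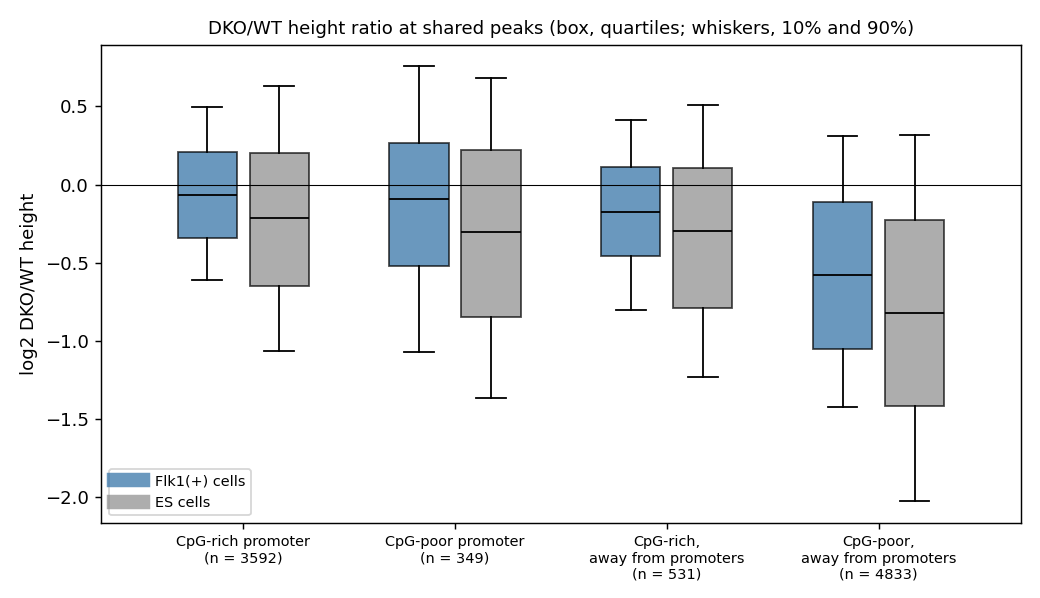
The log2 ratio of DKO to WT height for the 4 kinds of shared WT peak, in Flk1(+) cells (blue) and in ES cells at the same peaks (grey). Boxes give the quartiles and the median, and whiskers reach from the 10% to the 90% value. The CpG-rich promoter peaks have medians of −0.07 and −0.21, and the CpG-poor peaks away from promoters have medians of −0.58 and −0.82. The CpG-poor promoter peaks have −0.09 and −0.30, and the CpG-rich peaks away from promoters −0.17 and −0.30.

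The most extreme ratios came from summits far apart. Among the 609 members with summits over 200 bp apart, 65 (10.7%) were 2-fold or more higher in DKO, against 3 (0.162%) of the 1855 with summits within 50 bp. The highest ratio, 9.88, belonged to a second *Spty2d1* member, with a height of 7.73 in WT and a DKO summit 474 bp away that is the 76.3 already given for the tall *Spty2d1* member. *Rnasek* had the next highest, 5.04, from a WT height of 5.32 set against a DKO height of 26.8, and another member at the same gene, 1 bp from that DKO summit, had a WT height of 56.0 and a ratio of 0.48. *Isl1*, a LIM-homeobox gene of cardiac progenitors, had the lowest ratio, 0.18, with heights of 30.3 in WT Flk1(+), 5.38 in DKO Flk1(+), 4.63 in WT ES and 1.63 in DKO ES. Its DKO summit was 391 bp away, so these heights were read at different places of the promoter. Its window held 2 GATA elements, and 1 of them is in the stretch printed above. *Arih1*, a ubiquitin ligase gene, followed with 38.7 and 6.96 at summits 281 bp apart. The 6 highest ratios had summits 215 to 474 bp apart and the 6 lowest 256 to 448 bp apart.

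With summits within 50 bp, the highest ratios were smaller. *Xbp1*, a transcription factor gene of the unfolded protein response, had heights of 5.17 in WT and 14.3 in DKO, a ratio of 2.76, over ES heights of 1.58 and 3.96. The claudin gene *Cldn23* had 5.00 and 11.2, a ratio of 2.24, and *Ptprm*, a receptor tyrosine phosphatase gene, had 6.53 and 13.7, a ratio of 2.10. In all these cases the ES height was also higher in DKO. *Zfp827*, which had 22.6 in WT and 44.1 in DKO, was the tallest promoter among the 6 with the highest ratios, and its ES heights were alike, at 7.40 and 7.35.

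On the other side, the members lower in DKO at matched summits often held GATA elements. *Ppp1r8*, the gene of a nuclear inhibitor of protein phosphatase 1, had heights of 24.5 in WT and 7.31 in DKO, a ratio of 0.30. *Ypel3* had 22.5 and 7.97, a ratio of 0.35, and *Med13l* had 33.2 and 12.7, a ratio of 0.38. *Cyp46a1*, the cholesterol 24-hydroxylase gene, had 38 and 14.6, *Degs1*, a sphingolipid desaturase gene, had 13.4 and 5.30, and *Sp5*, a zinc-finger gene responsive to Wnt, had 15.8 and 6.32. Of these 6 genes all but *Cyp46a1* had at least 1 WGATAA in the 501-bp window. None of the 6 with the highest ratios at matched summits had one, and with 6 genes a side these counts are a description only.

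The ratio also ran with the height used to sort the members. When the members were split into 10 classes of equal size, the median log2 DKO/WT from the lowest to the tallest class by WT height went from 0.30 to −0.30, and by DKO height it went from −0.35 to 0.07, so the ratio of members sorted by a height is not independent of that height. The 232 members in the tallest class of both lists had a median of −0.14.

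WT and DKO heights ran together across members, with a Spearman correlation of 0.62 over all 3592 and 0.82 over the 1855 with summits within 50 bp. Across members the Flk1(+) height also followed the ES height of its own genotype, with a Spearman correlation of 0.84 in WT and 0.75 in DKO. At the CpG-poor peaks away from promoters it was 0.49 and 0.31. It was 0.81 and 0.67 at shared CpG-rich peaks away from promoters, and 0.71 and 0.52 at shared CpG-poor promoter peaks. High values were thus not particular to the members. The points of these correlations share their libraries, the limit on enrichment ties the height to the ES height, and neighbouring members share bases. The number of CpGs was almost unrelated to height, with a Spearman correlation of 0.05 in WT and 0.09 in DKO.

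Few members held a GATA element. WGATAA was present in 530 members, which is 14.8% (13.6% to 16.0%), against 41.2% (40% to 42.3%) of the 7184 windows of equal length centred 2 kb to either side, a ratio of 0.36. In the shared CpG-poor peaks away from promoters the share was 83.7% (82.6% to 84.7%), in shared CpG-poor promoter peaks 58.7%, and in shared CpG-rich peaks away from promoters 25.2%. CpG-rich promoter peaks of the DKO list alone had the lowest share of these kinds, 10.5% (9.68% to 11.3%), and those of the WT list alone had 19.2% (16.9% to 21.7%). The flanking windows differ from the members in base composition, so the 501 bases around gene starts with 20 or more CpGs were searched as well. WGATAA was in 11% (10% to 12.2%) of the 3242 such gene starts with a member and in 10.1% (9.23% to 11.1%) of the 3958 with no peak in either list.

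The GATA elements that members did hold were only weakly concentrated at the peak position. Of 618 matches in members, 151 (24.4%, interval 21.2% to 28%) were centred within 50 bp of the WT position, where even placement puts 20.2% and the flanking windows had 22.1%. Of the matches to WGATAR in members 25% (22.7% to 27.5%) were that close, against 21.2% in the flanking windows. At the CpG-poor peaks away from promoters 48.2% (47.1% to 49.3%) of WGATAA matches were. The share of members with WGATAA was between 10.9% and 15.9% in each of the lowest 8 of 10 classes by WT height, 17.8% in the next and 28.1% (23.7% to 32.9%) in the tallest. By DKO height the tallest class had 20% (16.2% to 24.4%).

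Members with a GATA element near the WT position had a higher median in WT than those without. The element was searched around the WT position only and not around the paired DKO position. The ratio of members also fell with their WT height, as given above, so the ratios below are not independent of that height. The 145 members with WGATAA within 50 bp of the WT position had a median height of 11.7 in WT and 9.58 in DKO, against 9.09 and 8.91 for the 3062 members without the element. Their median log2 DKO/WT was −0.40, against −0.05, and 19 of them (13.1%) were 2-fold or more higher in WT and 4 (2.76%) higher in DKO. The 61 members higher in WT among those without WGATAA were 1.99%. In the ES libraries the medians of the log2 ratio at the same members were −0.47 and −0.19. The medians of both kinds of member thus stood in the same order in the ES libraries. The limit on enrichment ties each ES height to the Flk1(+) height of its genotype, so this order is not independent of that in Flk1(+) cells.

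The members with the most GATA elements, 3 in the 501 bases, were led by *Npc2*, a lysosomal cholesterol-binding protein gene that shares its promoter with *Isca2*. It had heights of 49.1 in WT Flk1(+), 24.2 in DKO Flk1(+), 8.89 in WT ES and 4.59 in DKO ES. *Med13l* had ES heights of 3.02 in WT and 1.30 in DKO beside the heights above, and *Ublcp1* had 28.9, 18.6, 2.04 and 4.78 in the order used for *Npc2*. *Mecom*, a zinc-finger transcription factor gene of blood stem cells, had 10.8 and 5.31 in WT and DKO Flk1(+), over 0.89 and 0.86. *Nae1*, a subunit gene of the NEDD8-activating enzyme, had 10.1 and 10.9, and *Tars*, the threonyl-tRNA synthetase gene, had 9.49 and 10.7. The first 4 of these were lower in DKO than in WT and the last 2 were not, and the median log2 DKO/WT of all 11 members with 3 such elements was 0.08.

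The CCAAT box was concentrated at the position of the members. It occurred in 55.3% (53.6% to 56.9%) of members and 48.9% of their flanking windows, and 1316 of its 3800 matches (34.6%, interval 33.1% to 36.2%) lay within 50 bp of the WT position, where even placement puts 20.3%. At the CpG-poor peaks away from promoters 20.6% of CCAAT matches did. The share was 32.5% at shared CpG-rich peaks away from promoters, with an interval that includes the members' 34.6%. At CpG-rich promoter peaks of the WT list alone it was 30.6% (27.3% to 34.2%). At those of the DKO list alone it was 26.2% (24.8% to 27.8%). Central placement of the box was thus not particular to the members. The box was in 59.03% (53.8% to 64.1%) of shared CpG-poor promoter peaks and in 44.3% of shared CpG-rich peaks away from promoters. The share of members with a CCAAT box went from 44.8% (39.8% to 50%) in the lowest class by WT height to 64.2% (59.1% to 69.0%) in the tallest. Gene starts with 20 or more CpGs held it in 53.4% (51.6% to 55.1%) where there was a member, 41.8% (40.2% to 43.4%) where the DKO list alone had a peak, and 37.1% (35.6% to 38.6%) where neither did, and in 43.7% of all 12042 such gene starts. Members with a CCAAT box within 50 bp had median heights of 10.5 in WT and 9.62 in DKO, and the others 8.88 and 8.71.

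**Figure D3:**
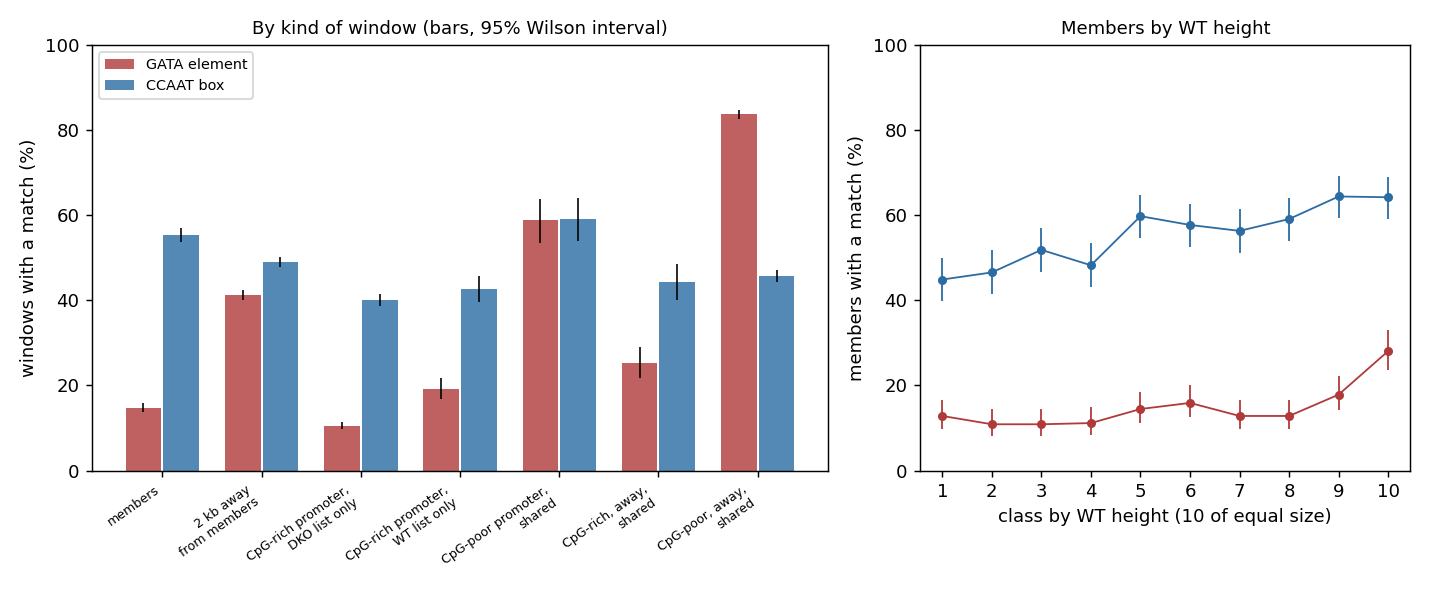
Share of 501-bp windows with a GATA element (red) or a CCAAT box (blue), by kind of peak (left) and by class of the members' WT height (right, 10 classes of equal size), with 95% Wilson intervals. The GATA share is 14.8% in members and 83.7% in shared CpG-poor peaks away from promoters, and it reaches 28.1% in the tallest class of members.

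Other promoter elements were present in fewer members than the CCAAT box. That box has fewer bases than each of them, so these shares do not rank the elements. The SP and KLF element GGGGCGGG was in 40.7%, the ETS element CCGGAAGT in 11.2%, the NRF1 element GCGCATGC in 10.6% and the YY1 element AAGATGGC in 7.91%. Relative to the flanking windows, which differ in base composition, the share was 1.13 times for the CCAAT box. It was 17.2 times for the SP and KLF element, 27.9 for the ETS element and 10.8 for the NRF1 element. The TATAAA sequence was in 6.10% of members and 32.4% of their flanking windows, and at gene starts with 20 or more CpGs it was in 5.49% (4.76% to 6.33%) of those with a member and 8.11% (7.30% to 9.0%) of those with no peak. The E2F element TTTCCCGC was in 4.48%, the CREB and ATF element TGACGTCA in 3.95%, the ZBTB33 element CTCGCGAG in 3.29% and the E-box TCACGTGA in 2.84%. All were searched on both strands, and the looser GATA element WGATAR, which includes WGATAA, was in 27.1%. Among gene starts with 20 or more CpGs, the NRF1 element was in 10.4% (9.42% to 11.5%) of those with a member and 3.41% (2.89% to 4.02%) of those with no peak. The ETS element was in 13.0% (11.8% to 14.2%) and 5.03% (4.39% to 5.75%). Where the DKO list alone had a peak, the NRF1 element was in 6.64% (5.87% to 7.51%) of such gene starts. The ETS element was in 12.9% of these, inside the interval of gene starts with a member. It thus did not separate members from peaks of the DKO list alone. The SP and KLF element did not separate gene starts with a member from those with no peak, at 42.1% (40.4% to 43.8%) and 43.0% (41.5% to 44.5%). Of the NRF1 matches in members 39.5% (35.6% to 43.6%) lay within 50 bp of the WT position, where even placement puts 20.2%, and of the SP and KLF matches 18.1% did. The NRF1 share was 38.2% (27.6% to 50.1%) at shared CpG-rich peaks away from promoters. It was 43.9% (33.7% to 54.7%) at CpG-rich promoter peaks of the WT list alone and 23.5% (19.7% to 27.7%) at those of the DKO list alone. A match is a stretch of letters and does not show that the factor was bound.

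**Figure D4:**
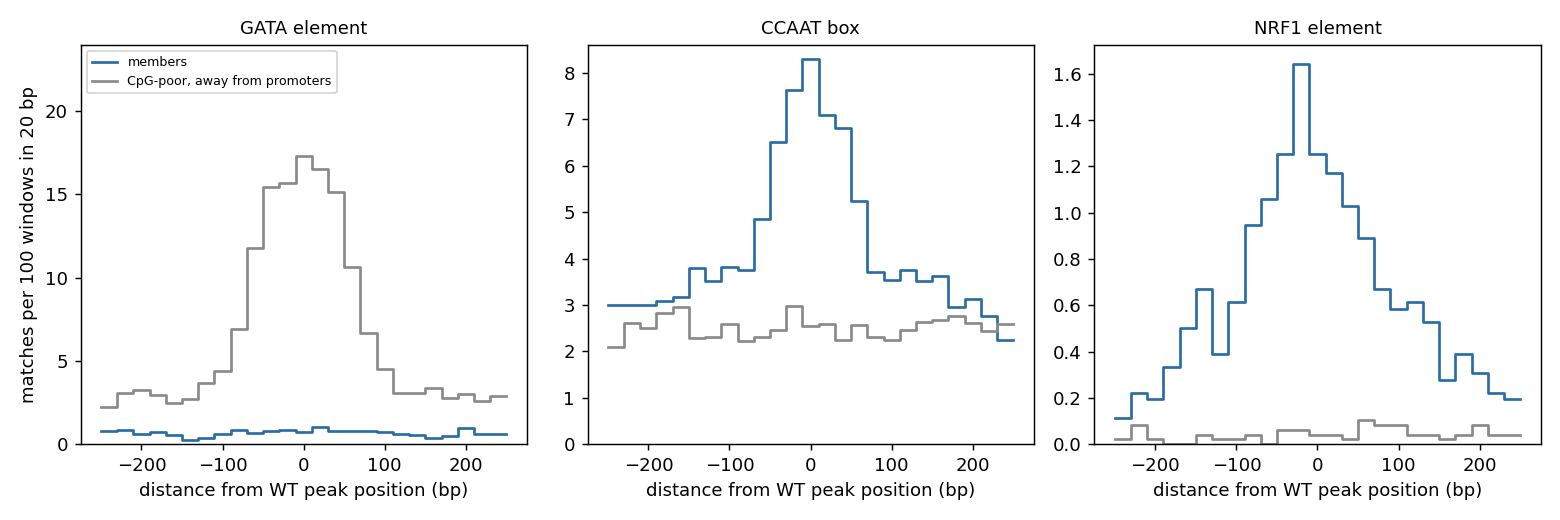
Matches to the GATA element, the CCAAT box and the NRF1 element by distance from the WT peak position, in bins of 20 bp, as matches per 100 windows, for the 3592 members (blue) and the 4833 shared CpG-poor peaks away from promoters (grey). The GATA element is concentrated at the centre of the grey peaks and far less so in members, where 24.4% of its matches lie within 50 bp, and in members the CCAAT box and the NRF1 element are concentrated at the centre.

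The number of CpGs went with these elements. From the 756 members with 20 to 29 CpGs to the 786 with 50 to 89, the share with WGATAA went from 25.5% (22.6% to 28.8%) to 7.51% (5.86% to 9.56%) and the share with a CCAAT box from 63.4% to 44.9%. The median log2 DKO/WT height went from −0.14 to 0.00. The median WT height was 8.68 in the former and 8.99 in the latter.

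The 53 members with exactly 20 CpGs had median heights of 8.15 in WT and 7.99 in DKO, and the 39 shared promoter peaks with 19 CpGs had 7.03 and 7.40. The 37 members 901 to 1000 bp from a gene 5′ end had 7.73 and 7.09, and the 22 shared CpG-rich peaks 1001 to 1100 bp away had 9.88 and 8.30, and WGATAA was in 11 of the former and 1 of the latter. The 110 members with a DKO summit 401 to 500 bp away had 7.20 and 6.96, and the 70 CpG-rich promoter peaks with one 501 to 600 bp away had 7.20 and 7.37.

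Members covered a minority of CpG-rich promoters. Of 13120 protein-coding genes with a start site in a window of 20 or more CpGs, 3414 (26.0%, interval 25.3% to 26.8%) had a member within 1 kb of a start site. Another 3817 (29.1%) had a peak in the DKO list only, 936 (7.13%) had one in the WT list only, and 4418 (33.7%) in neither list. Of 9239 genes with no such start site 59 (0.639%) had a member. The share with a member was 15.2% at genes with 20 to 29 CpGs, 31.5% at those with 50 to 59 and 23.3% at those with 60 to 105. Of the 3483 genes that the lists name within 1 kb of a member, 2846 (81.7%) had 1 member and 8 had 4, among them *Klf6*, *Cltc*, *Spop* and *Runx1t1*.

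The replication licensing list had the highest share with a member among the gene lists examined, followed by chaperonin subunit and splicing factor genes. Besides licensing genes, that list holds other DNA replication genes, such as *Pcna*, *Cdc45* and *Rpa1*. Of its 25 genes with CpG-rich start sites 19 had a member (76.0%, interval 56.6% to 88.5%), against 26.1% of the 13075 CpG-rich gene symbols, and the other 6 had a peak in the DKO list only. The 19 genes with a member had median heights of 15.0 in WT and 12.1 in DKO, against 9.95 and 9.14 over all genes with a member. For these medians and the genes named with them, only the tallest member of each gene by WT height was used. This choice favours WT height. *Mcm7*, a subunit gene of the replicative helicase, had 30.2 and 26.0, *Mcm5* had 26.6 and 25, and *Rpa1*, which encodes a single-stranded DNA binding subunit, had 26.3 and 26.4. *Cdt1*, a loading factor of the helicase, had 20.2 and 17.1, and *Orc6*, a subunit gene of the origin recognition complex, had 21.2 and 21.0. The lowest DKO/WT ratio on this list was at *Orc4*, with 10.6 and 6.18, and the highest at *Mcm3*, with 14.3 and 19.7.

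Of 10 chaperonin genes 7 had a member, among them *Cct3* with 11.1 in WT and 11.7 in DKO. *Hspd1* and *Hspe1*, which encode the mitochondrial chaperonin and its partner, share 1 promoter and 1 member, with 8.22 and 12.3. Splicing factor genes had a member in 34 of 69 (49.3%, interval 37.8% to 60.8%), cytosolic ribosomal protein genes in 34 of 80 (42.5%), translation initiation factor genes in 21 of 53 (39.6%) and proteasome subunit genes in 17 of 44 (38.6%, interval 25.7% to 53.4%). NADH dehydrogenase subunit genes had one in 14 of 36 (38.9%, interval 24.8% to 55.1%), mitochondrial ribosomal protein genes in 28 of 75 (37.3%) and aminoacyl-tRNA synthetase genes in 11 of 36 (30.6%, interval 18.0% to 46.9%). The intervals of the proteasome, NADH dehydrogenase and synthetase genes include the 26.1% of all CpG-rich genes. Most other cytosolic ribosomal protein genes were in the DKO list only, 39 of the 80.

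Hox and germline genes held no member. None of 30 Hox genes with CpG-rich start sites had a member (interval up to 11.4%), and none of 20 germline genes known for methylated CpG-rich promoters had one (up to 16.1%), nor any peak within 1 kb of a start site in either list. The next lists had shares whose intervals include the 26.1% of all CpG-rich genes. Of 35 Fox genes 7 had a member (20%, interval 10% to 35.9%), of 15 Sox genes 3, of 14 endoderm transcription factor genes 1, of 11 mesoderm genes 2, of 12 Flk1 and vascular genes 2, of 7 pluripotency genes 2 (28.6%), of 19 imprinted genes 2, of 62 clustered histone genes 13 and of 250 zinc-finger genes 58 (23.2%). Of 52 CpG-rich genes on the study's list of hyper-responsive genes, which was chosen on expression in the same cell lines and is not independent of them, 3 had a member, which is 5.77% (1.98% to 15.6%), and 15 (28.8%) had a peak in the DKO list only, as had 29.1% of all CpG-rich genes. The 3 were *Myl4*, an atrial myosin light chain gene, with 9.74 in WT and 9.84 in DKO, *Foxo3* with 5.41 and 7.61, and *Spnb1* with 6.72 and 8.33. Gene lists overlap in part, and genes that start beside each other share members, so these shares are counts and no test was made.

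**Figure D5:**
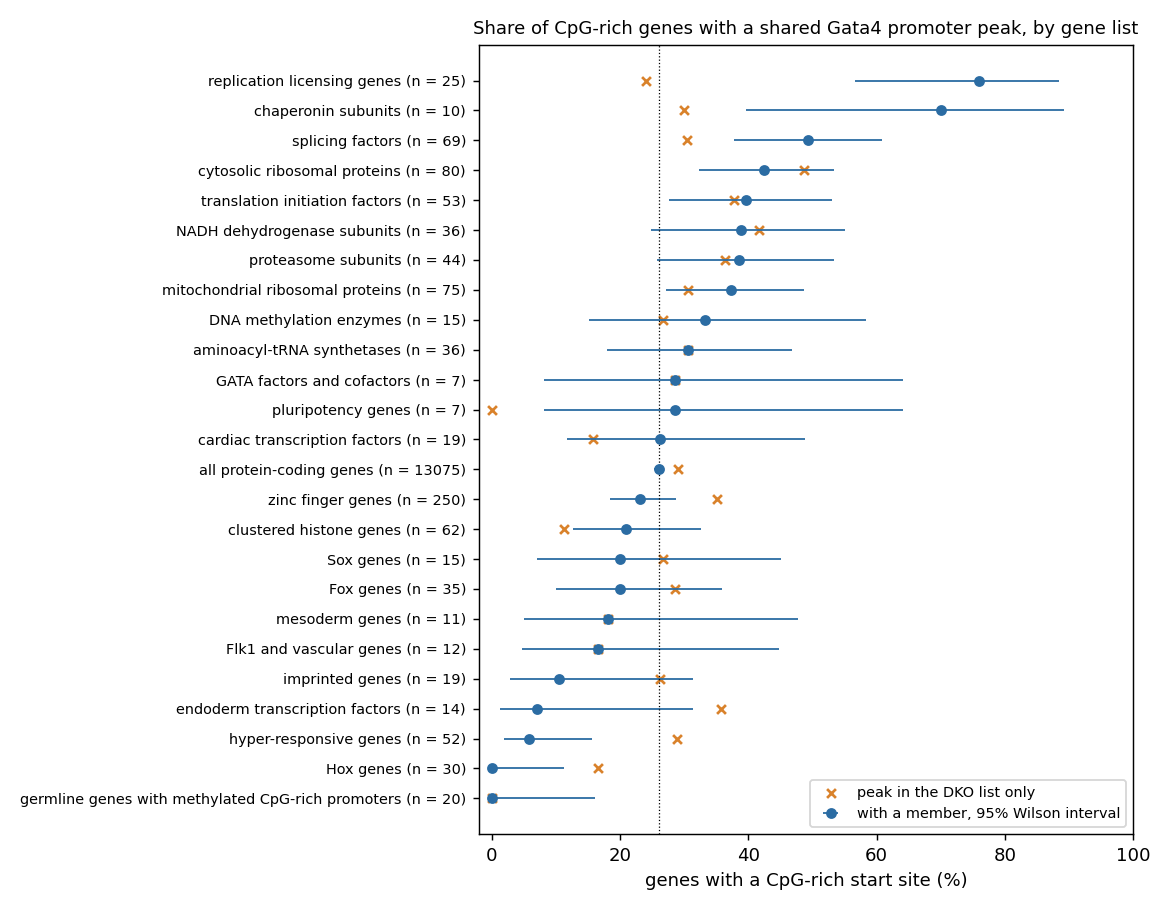
Share of genes with a CpG-rich start site that had a member within 1 kb of a start site (circles, with 95% Wilson intervals) or a peak in the DKO list only (crosses), for 24 gene lists and for all 13075 gene symbols, whose share with a member, 26.1%, is the dotted line. The replication licensing list, which also holds other DNA replication genes, is highest at 76.0%, and Hox and germline genes are at 0.

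Of 19 cardiac transcription factor genes with CpG-rich start sites 5 had a member (26.3%), close to the 26.1% of all CpG-rich genes. *Mef2d* had heights of 20.7 in WT Flk1(+), 15.6 in DKO Flk1(+), 6.19 in WT ES and 3.87 in DKO ES, with 2 GATA elements in its window. *Tbx20* had 13.0 and 14.1 in the Flk1(+) libraries over 4.21 and 3.19, *Tbx3* had 9.66 and 7.0 over 2.44 and 0.80, and *Srf* had 6.34 and 8.30 over 1.81 and 1.63. *Isl1* is described with the extreme ratios. *Mef2d* and *Tbx3* were lower in DKO than in WT in both cell types, whereas *Tbx20* and *Srf* were higher in DKO Flk1(+) and lower in DKO ES.

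Of 7 GATA factor and cofactor genes with CpG-rich start sites *Gata6* and *Gata2* had members. This share, 28.6% (interval 8.22% to 64.1%), was close to the 26.1% of all CpG-rich genes. *Gata6*, which acts beside Gata4 in heart and endoderm, had a member 306 bp from its 5′ end with 11.8 in WT Flk1(+), 7.72 in DKO Flk1(+), 2.24 in WT ES and 2.32 in DKO ES, and another 778 bp from it with 6.67, 6.06, 1.87 and 1.01. *Gata2*, a gene of blood progenitors, had 5.86, 7.53, 1.42 and 1.36. *Gata4* itself had a promoter peak in the WT list only, and *Zfpm1* and *Zfpm2*, which encode its cofactors, in the DKO list only. The DKO list alone had a peak at 28.6% of the 7 genes, against 29.1% of all CpG-rich genes. *Runx1* had 11.2 in WT and 6.15 in DKO Flk1(+), and *Ets1* had 9.20 and 5.97, and both genes act in vascular and blood progenitors. *Foxc1* and *Foxc2*, mesoderm transcription factor genes, had 5.31 and 7.21, and 6.08 and 5.94. Of the pluripotency genes *Klf2* had 7.24 and 6.68 and *Klf4* had 5.09 and 5.14.

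Of 15 genes of DNA methylation, demethylation and methyl-CpG reading, 5 had members, among them *Uhrf1*, *Mbd1*, *Mbd3* and *Mbd4*. The interval of this share, 33.3% (15.2% to 58.3%), includes the 26.1% of all CpG-rich genes. *Uhrf1*, which brings maintenance methylation to replicating DNA, had a member with 21.8 in WT Flk1(+), 19.7 in DKO Flk1(+), 3.05 in WT ES and 2.63 in DKO ES, and another with 18.8, 20.5, 5.61 and 3.07. *Mbd3*, of the NuRD repressor complex, had 29.9, 23.3, 6.63 and 2.52 in the same order, and *Mbd4*, a DNA glycosylase gene, had 16.3, 21.8, 3.33 and 5.42. *Mbd1*, a methyl-CpG reader gene, had 8.80, 7.95, 2.52 and 2.11. The members of *Uhrf1*, *Mbd3* and *Mbd4* were thus taller than most members, and that of *Mbd1* was below the median in both lists. *Dnmt3a*, which is inactivated in the DKO cells, and *Dnmt1*, the maintenance enzyme gene, had promoter peaks in the DKO list only, and *Dnmt3b* had none in either list. At *2610039C10Rik* the heights were 14.3, 16.6, 4.0 and 2.25 in WT Flk1(+), DKO Flk1(+), WT ES and DKO ES. *Acaa2*, a gene of mitochondrial fatty acid oxidation, had a member with 7.72, 6.70, 1.82 and 1.95, and 2 others beside it lay nearest to Scarna17. *Pdlim3*, a muscle Z-disc protein gene, had 11.1, 6.44, 2.11 and 1.38, and *Ryr2*, the cardiac ryanodine receptor gene, had 5.21, 5.58, 0.99 and 1.81.

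Members were unevenly spread over chromosomes. Chromosome 11 held 502 members (14%), and 37.3% (34.4% to 40.2%) of its 1079 CpG-rich genes had one, against 13.7% (10.8% to 17.3%) of the 423 on chromosome X and 21.1% to 30.4% on the other chromosomes. The median heights of the 174 members on chromosome 8 were 13.6 in WT Flk1(+), 11.7 in DKO Flk1(+), 3.68 in WT ES and 2.82 in DKO ES, the highest of any chromosome in each library. On chromosome X they were 6.94, 6.43, 1.75 and 1.47, the lowest in each. The part of chromosome copy number in these heights was not tested. Without chromosomes 8 and 11 the median log2 DKO/WT of members was −0.07, 14.6% of them held WGATAA, and 25% of CpG-rich genes had a member.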

How the data were processed

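Chromatin immunoprecipitation with a mixture of anti-Gata4 antibodies and sequencing was done on 4 libraries, 1 per condition, and 2 peak lists were deposited, one for each genotype of Flk1(+) cells against the ES cells of that genotype. Per the labels the submitters' processing notes name CASAVA 1.8.1, cutadapt and mm9. Peak calling by the authors was done in DNAnexus, with a bandwidth for the kernel density of 30, a height of at least 5, at least 3 times the background, and a ratio of confident to repetitive mappings of 3. The aligner is not given in the sources used here. The lists were tied to their genotypes by the number of peaks that the study states for each.

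The deposited signal values are the height of the density profile in Flk1(+) cells and in ES cells at the same place, and whether the authors scaled them to library depth is not stated. The deposited ratio is the fold enrichment, which equals the height divided by the ES height with values below 1 taken as 1. The deposited q-value was given as −log10, and the deposited score is the rank by it. The deposited lists hold no read totals, and the study's mapped reads for the Flk1(+) libraries were not used here, so no interval for a height was made, and shares carry 95% Wilson intervals for counting error only. With 1 library a condition, no test between conditions was possible. No deposited column of per-sample values was left out.

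WT and DKO peaks were paired by the nearest position within 500 bp. CpGs and motifs were counted, on both strands and at every position, in the deposited windows of 501 bp, which equal mm9 at all peaks, and in windows 2000 bp to either side. Start sites and exons came from GENCODE vM1 on the same build. A gene counts as CpG-rich if the window around any of its protein-coding transcript starts holds 20 or more CpGs. A member is called higher in one genotype at a 2-fold difference. The work was done in Python 3.11.15 with pysam 0.24.0 for sequences, pandas 2.3.3, NumPy 2.4.6 and SciPy 1.17.1 for values, and Matplotlib 3.10.9 for plots, and the steps were tested on simulated data.

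The members, gene lists and motifs were chosen with earlier results of these data known. The genes named are the 8 tallest members in each list, the 6 with the highest and the 6 with the lowest DKO/WT ratio, the 6 with the most WGATAA, the 5 with the highest ES height in each genotype, members at genes of the regulator lists and at genes that the study examined singly, and members near the limits of the rule. The 6 highest and lowest at summits within 50 bp, the examples from other gene lists and the members of highest enrichment were added after seeing the data.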

Additional observations from a re-analysis of the deposited data

How the results depend on the processing

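The limits are those of 2 lists from 1 library a condition: no difference between genotypes can be set against replicate error, the relation of heights to depth is not stated, and a peak missing from a list may have missed a limit of the caller narrowly. No paired analysis was possible because each condition has 1 library. Of 72 values computed under other settings 37 stayed within the counting interval of the reported one or, for the number of members, within 1.5 times of it, 34 moved and 1 reversed. The median log2 DKO/WT at members turned from −0.07 to 0.28 when each list was divided by the median of its shared peaks, with 0.752% of members 2-fold higher in WT and 6.38% in DKO, since that scaling adds 0.35 to every value. Closer summits gave smaller shares: within 250 bp 2.00% were higher in WT and 1.30% in DKO, within 100 bp 1.60% and 0.169%, and within 50 bp, chosen after seeing the data, 1.73% and 0.162%. Within 100 bp the 2371 members had a median of −0.11, 0.49 above that of the other shared peaks, and 19% of CpG-rich genes had one, and within 50 bp the median was −0.13, 0.50 above. With heights of 7 or more in both lists 2354 members remained, the median difference from other shared peaks was 0.47, and 1.53% were higher in WT and 1.19% in DKO. Pairing with the tallest DKO peak gave a median of −0.0015, a difference of 0.47 and 4.04% higher in DKO. With 1 member per DKO peak, chosen after seeing the data, the median was −0.090 and 1.54% were higher in DKO. With 15 or more CpGs 16.1% of members held WGATAA, 0.393 times the share in flanking windows, and with 30 or more CpGs 11.9% did, 0.288 times, with a median difference of 0.37 and 25% of CpG-rich genes with a member. WGATAR was in 27.1%, 0.445 times its share in flanking windows, and WGATAA in the central 200 bp in 7.29%. A limit of 500 bp from the annotated start left 24.8% of CpG-rich genes with a member, and leaving out chromosomes 8 and 11, chosen after seeing the data, left 25%. Scaling by the study's mapped reads, which would lower the DKO/WT ratios if heights are unscaled, and a background of shuffled bases were not run.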
